A study of Mus musculus with 278 samples.

Results

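A set of 9 genes reported as markers of mammary stem or progenitor cells (Procr, Lgr5, Lgr6, Lgr4, Tspan8, Bcl11b, Sox9, Aldh1a3 and Kit) was followed through single cells of the mouse mammary gland. The genes were taken as a named list, from 27179 genes counted, and all were in the files. Each of the 278 libraries held 1 cell captured on the Fluidigm C1 system, a chip that isolates cells and makes cDNA in separate chambers. There were 112 adult cells sorted as basal, 43 adult cells sorted as luminal and 123 total epithelial cells taken at mid-pregnancy, and 85, 41 and 96 of them reached 50000 reads in the genes kept. All animals were of strain FVB/NJ, and the labels give no treatment or altered gene. Each sort was pooled from several mice that the labels do not name, and the adult cells were sorted by lineage whereas the pregnancy cells were not, so that stage and sort cannot be told apart. Each group therefore counted as 1 sample, no test was run, and differences between groups are not checked by replicates. Intervals are exact, at the 95% level, and cover counting error only, because the reads came from amplified cDNA without molecular identifiers. For a share of 0, the limit printed is not the end of that interval but the share that 3 cells of the group would make.

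The mammary epithelium has an outer basal layer of contractile cells and an inner luminal layer that holds progenitors, hormone-sensing cells and, in pregnancy, milk-producing alveolar cells. Lgr4, Lgr5 and Lgr6 encode receptors for R-spondins, secreted proteins that raise the response of a cell to Wnt. Procr, the endothelial protein C receptor, and Tspan8, a tetraspanin of the cell surface, have both been used to enrich basal cells with repopulating ability, and Bcl11b and Sox9 are transcription factors linked to quiescent stem cells and to luminal progenitors. Aldh1a3, which makes retinoic acid, and Kit, the receptor for stem cell factor, are used as markers of luminal progenitors.

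The sorts carried the markers of their labels. At equal depth, Krt14 was detected in 97.6% of adult basal and 22.0% of adult luminal cells, and Krt18 in 44.7% and 100% of them. Cells used held a median of 379076 reads in adult basal, 638595 in adult luminal and 215398 in pregnancy, with a lowest of 54010 and a highest of 1292391 over all groups. Every cell was therefore thinned to 50000 reads before a gene was called detected, by 1 or more reads. A median of 2257, 3438 and 3238.5 genes was then found per cell. No pair of cells held identical counts. Pregnancy cells with title numbers up to 55 (45 cells) and above 55 (51 cells) differed, with 24 and 2 cells respectively detecting 3 or more of 10 cell cycle genes, so levels and shares that differed most between them stand beside the pooled ones. The labels name no batch, and the part of the title numbers in these differences was not tested.

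Across the 9 genes, detection fell into 3 kinds of pattern. Lgr4 and Sox9 were found in most cells of every group. Lgr5 was found almost entirely in adult basal cells, whereas Aldh1a3 and Kit were found in adult luminal and pregnancy cells and in no adult basal cell at equal depth. Procr, Lgr6, Tspan8 and Bcl11b were found in under 25% of the cells of any group.

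**Figure D1:**
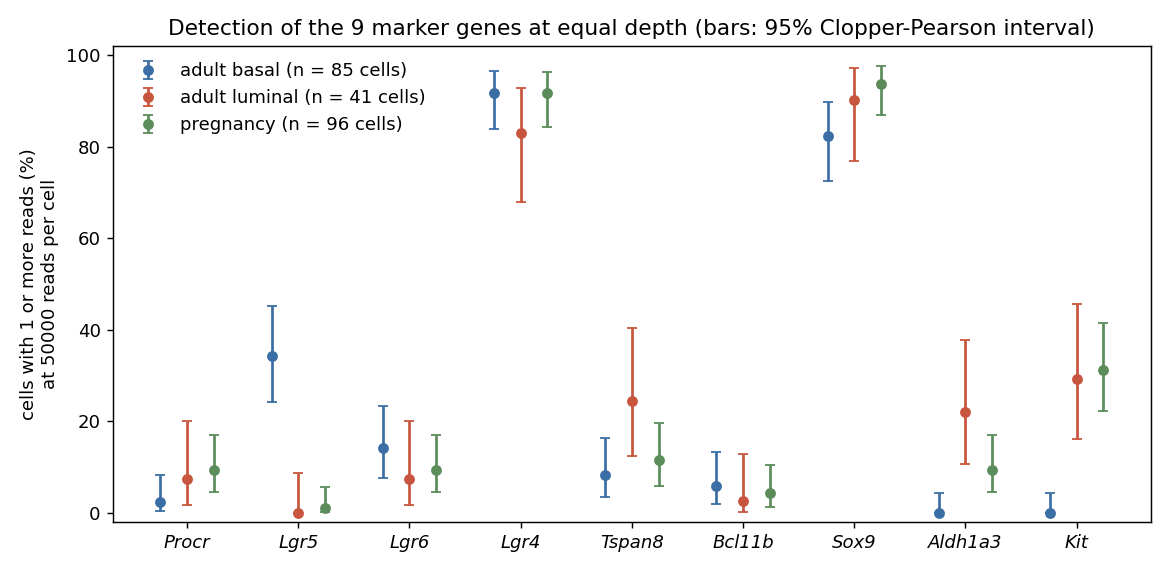
Percent of cells (y axis) with 1 or more reads of each gene (x axis) after every cell was thinned to 50000 reads, in 85 adult basal, 41 adult luminal and 96 pregnancy cells; points are shares and bars are 95% Clopper-Pearson intervals. Lgr4 and Sox9 lie above 80% in all groups, and Lgr5 stands at 34.1% in adult basal cells against 0% and 1.04% in the other groups.

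Promoter windows show how the genes differ at their starts, and 6 of the 9 genes had one in the RefSeq table (GRCm38.p6); Lgr5, Sox9 and Aldh1a3 had none. The 250 bases upstream of the start are given 5′ to 3′ on the strand of the gene for 3 genes with different patterns, namely Lgr4 (found in most cells), Lgr6 (highest in adult basal cells) and Kit (not found in adult basal cells at equal depth). Capitals mark CTTTG, the core of TCF/LEF sites, and GGAAG, the core of ETS sites, searched on both strands.
Lgr4: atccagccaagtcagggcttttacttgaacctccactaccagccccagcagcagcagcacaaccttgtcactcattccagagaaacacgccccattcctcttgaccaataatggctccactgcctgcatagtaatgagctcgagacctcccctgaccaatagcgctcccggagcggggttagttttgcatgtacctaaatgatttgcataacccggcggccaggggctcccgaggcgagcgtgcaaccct
Lgr6: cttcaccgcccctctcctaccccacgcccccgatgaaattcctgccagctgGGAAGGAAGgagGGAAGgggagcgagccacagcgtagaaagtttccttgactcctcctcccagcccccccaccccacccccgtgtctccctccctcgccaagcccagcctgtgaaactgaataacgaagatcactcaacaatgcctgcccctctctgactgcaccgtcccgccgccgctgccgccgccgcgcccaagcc
Kit: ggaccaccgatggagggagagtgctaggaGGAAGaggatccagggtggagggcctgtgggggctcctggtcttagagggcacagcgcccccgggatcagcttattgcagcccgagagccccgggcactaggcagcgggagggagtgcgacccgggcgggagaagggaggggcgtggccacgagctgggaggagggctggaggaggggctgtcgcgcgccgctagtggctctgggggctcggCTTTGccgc
These windows lie at chr2:109917397-109917646 on the plus strand (Lgr4), chr1:135105277-135105526 on the minus strand (Lgr6) and chr5:75574737-75574986 on the plus strand (Kit). The Lgr4 and Kit windows end 1 base before the RefSeq span of the gene. For Lgr6 the start used for the window lies further in, and 98 bases of that window lie inside the RefSeq span. Kit had 2 windows, shifted by 4 bases, of which the first in the table is shown. The Lgr4 window held neither motif, the Lgr6 window held 3 matches to GGAAG, 2 of which overlap by 1 base, and the Kit window held 1 match to each. Of 32851 windows in the table, 48.6% held CTTTG and 64.1% held GGAAG, so that a match is common. GC content was 55.6% for Lgr4, 65.2% for Lgr6 and 70.8% for Kit, against a median of 52.4% over all windows, and the number of CpG dinucleotides was 10, 16 and 17 against a median of 6. Of the remaining members, Procr held 13 CpG, Bcl11b 9 and Tspan8 4. GATAA, the core of GATA sites, was in none of the 6 windows and in 22.6% of all windows.

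Among the R-spondin receptors, Lgr4 was the most widely detected. The adult basal sort had 78 positive of 85 (91.8%, 83.8 to 96.6), the luminal sort 34 of 41 (82.9%, 67.9 to 92.8) and pregnancy 88 of 96 (91.7%, 84.2 to 96.3), and without thinning in 92.9%, 87.8% and 93.8%. In the cells with a read, its level ran from 13.7 through a median of 567 to 2767 CPM (the reads of the gene scaled to all reads of the cell) in adult basal cells, from 2.64 through 156 to 1269 CPM in adult luminal cells, and from 8.17 through 357 to 2038 CPM in pregnancy cells. The ranges overlapped, while the summed level was 622 CPM (614 to 630) in adult basal against 275 CPM (269 to 282) in adult luminal cells, a log2 ratio of 1.18 (1.14 to 1.22). Requiring 5 reads in place of 1 lowered the adult luminal share to 61.0% and the pregnancy share to 81.3%.

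Lgr5 separated the adult sorts. It was found in 29 of 85 adult basal cells (34.1%, 24.2 to 45.2; 40.0% without thinning), and its level in the 34 cells with any read ran from 1.45 through a median of 132 to 1462 CPM. At equal depth it was in 0 of 41 luminal cells, which allows a share of up to 7.32%, and without thinning in 2 cells, at 26.0 and 35.4 CPM. In pregnancy it was found in 1 of 96 cells (1.04%, 0.0264 to 5.67), and without thinning in 3, of which cell 115 held 69 of the 73 reads at 451 CPM and the others stood at 3.98 and 7.04 CPM. Levels of these few cells lay within the adult basal range. The summed level was 163 CPM (159 to 167) in adult basal and 1.41 CPM (0.981 to 1.96) in adult luminal cells, a log2 ratio of 6.86 (6.38 to 7.38). Within adult basal cells the share was 13 of 41 for title numbers up to 55 and 16 of 44 above. The adult basal cells with Lgr5 held a median of 2631 genes at equal depth and 34.0% of the basal list, and those without it 1990 genes and 27.8%. Their median depth was 514135 and 283286 reads, and the part of depth and of genes per cell in this difference was not tested.

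Lgr6 was sparser and less bound to 1 sort. At equal depth 12 of the 85 basal cells carried a read (14.1%, 7.51 to 23.4), as did 3 of the 41 luminal cells (7.32%, 1.54 to 19.9) and 9 of the 96 at pregnancy (9.38%, 4.38 to 17.1). Without thinning, the pregnancy share was 18.8% (18 cells), above the interval at equal depth, and 9.12 CPM was the median of those cells. Summed levels were 23.9 CPM (22.3 to 25.5) in adult basal, 4.51 CPM (3.71 to 5.42) in adult luminal and 7.71 CPM (6.62 to 8.93) in pregnancy cells, with 14.4 CPM for title numbers up to 55 and 3.62 CPM above. The log2 ratio of basal to luminal cells was 2.41 (2.12 to 2.70), and it was 4.04 without cells that carried markers of another cell type (defined below) and 3.48 without adult basal cell 57 and adult luminal cell 33, which held 41.6% and 72.3% of the Lgr6 reads of their groups. All 12 adult basal cells with Lgr6 also held Lgr4, and 7 of them held Lgr5.

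**Figure D2:**
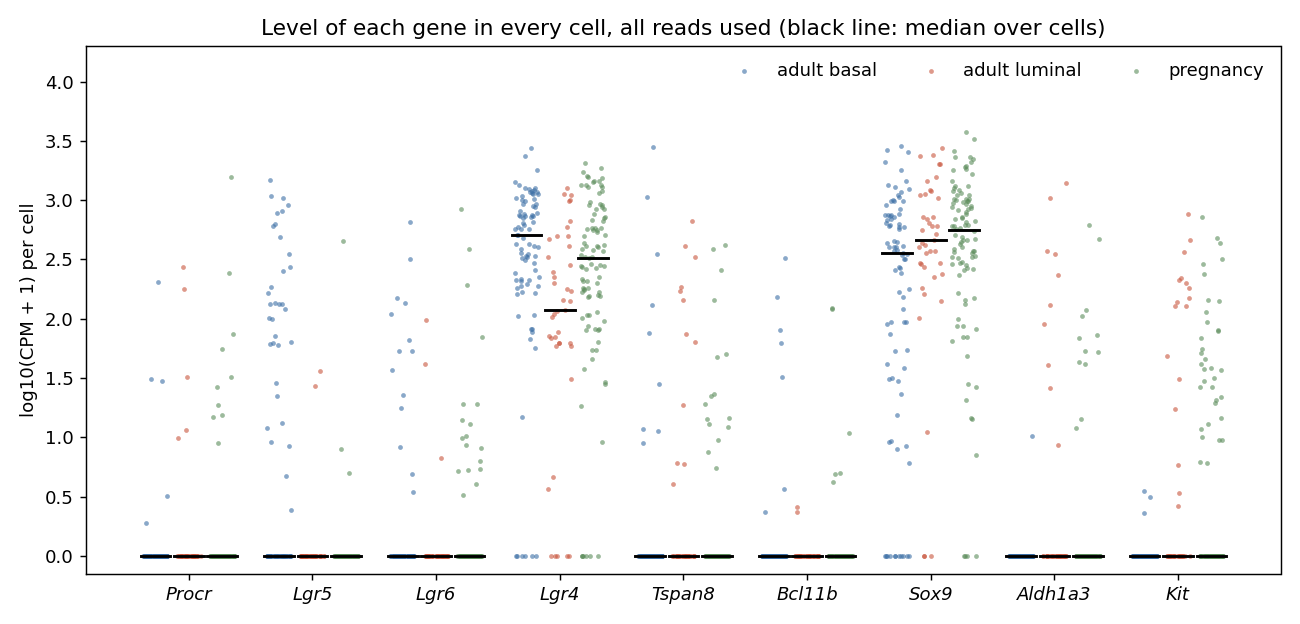
Level of each gene in every cell used, as log10(CPM + 1) from all reads (y axis), with 1 point per cell, colours for the 3 groups and black lines at the medians. The medians of all genes but Lgr4 and Sox9 lie at 0 in every group, and single cells reach 2790 CPM for Tspan8 and 1462 CPM for Lgr5, against 2767 CPM for Lgr4.

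Procr was rare, and outside the basal sort it was found in cells that also carried markers of other cell types. Reads were present in 2 of 85 cells sorted as basal (2.35%, 0.286 to 8.24), 3 of 41 sorted as luminal (7.32%, 1.54 to 19.9) and 9 of 96 from pregnancy (9.38%, 4.38 to 17.1), and without thinning in 5, 5 and 10 cells. Cells were marked as carrying another type where they detected 3 or more of 5 endothelial, 6 fibroblast, 5 immune, 5 T cell, 5 mast cell or 5 Schwann cell markers. The sorts had excluded cells stained for endothelial, leukocyte and erythroid surface markers. All 12 luminal and pregnancy cells with Procr at equal depth were such cells, and so were all 15 that held any Procr read. Among the 122 luminal and pregnancy cells without a Procr read, 15 were such cells. Without them, Procr was found in 0 of 35 adult luminal and 0 of 72 pregnancy cells, and none of their reads came from Procr.

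The types differed among these 15 cells. Fibroblast markers (among them the collagens Col1a1 and Col3a1) reached 3 in 10 of them, endothelial markers in 6 and immune markers in 3, with some cells in more than 1 type. The highest Procr level, 1563 CPM (256 reads), was in pregnancy cell 35, which detected all 5 immune markers, no Krt8 read, 6.50% of the basal list and 10.5% of the luminal list. Pregnancy cell 55 followed in pregnancy, at 243 CPM, with all 5 endothelial markers and no read of Epcam, Krt8 or Krt14. In the adult luminal sort the highest was cell 26, at 271 CPM, with all 6 fibroblast markers, 30547 CPM summed over them, 9.42% of the luminal list and no read of Krt8. Epithelial genes were not absent from the rest, since Epcam stood at 100 CPM or more in 11 of the 15 cells. Pregnancy cells with Procr held a median of 4491 genes at equal depth and those without it 3082, and the part of genes per cell in the marker counts was not tested.

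**Figure D3:**
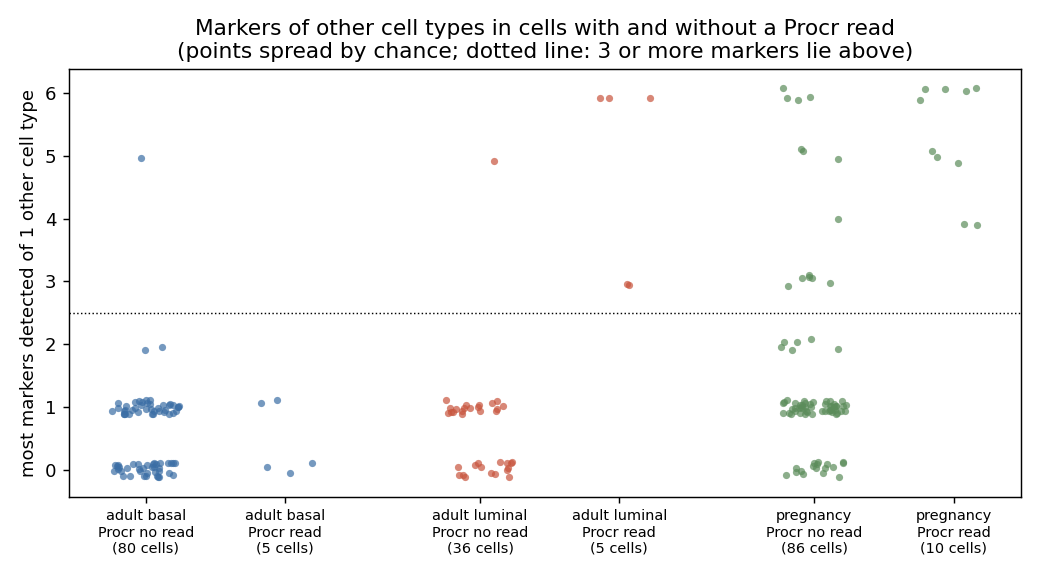
Highest number of markers detected for any 1 other cell type (y axis) in each cell, for cells without and with a Procr read in the 3 groups (x axis); points are spread at random around whole numbers. All 15 adult luminal and pregnancy cells with a Procr read lie above the dotted line at 3 or more markers, while the 5 adult basal cells with a read lie below it. Of all 85 adult basal cells, 1 lies above it.

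In the basal sort, only 1 of 85 cells carried markers of another type, so an overlap with Procr could hardly have shown there. The 5 adult basal cells with a read stood at 0.901, 2.19, 28.6, 30.2 and 203 CPM, and none had more than 1 marker of any other type. Cell 95 held 66 of the 88 reads, detected Lgr5 and Lgr4 as well, and stood at 1813 CPM for Epcam and 3158 CPM for Krt14. Both cells that kept Procr at equal depth (28 and 95) detected 17.0% and 18.0% of the basal list, under the threshold of 19.9% used below. In pregnancy, 8 of the 9 cells had title numbers up to 55 (17.8% of 45 cells, against 1.96% of 51 above). Of the 45 and 51 cells, 18 and 6 carried markers of another type.

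Tspan8 was found in a few cells of every group. The adult basal sort had 7 positive of 85 (8.24%, 3.38 to 16.2), the luminal sort 10 of 41 (24.4%, 12.4 to 40.3) and pregnancy 11 of 96 (11.5%, 5.86 to 19.6). Its level in cells with a read ran from 7.90 through 74.8 to 2790 CPM in adult basal, from 3.04 through 108 to 666 CPM in adult luminal and from 4.53 through 19.7 to 413 CPM in pregnancy cells. These ranges overlapped, and the summed levels of 46.9 CPM (44.7 to 49.2) and 52.5 CPM (49.7 to 55.4) in the adult sorts gave a log2 ratio of -0.16 (-0.27 to -0.06) that turned to 0.13 with TMM scaling. The 7 adult basal cells detected a median of 36.5% of the basal list, and the other adult basal cells 30.8%. In pregnancy, all 3 positive cells with title numbers up to 55 were of the basal class and the 8 above were of the luminal (4) or mixed (4) class. Summed levels were 6.67 CPM for title numbers up to 55 and 32.6 CPM above, with 62.7% and 48.4% of the reads in cells 41 and 117. Among pregnancy cells with 3 or more cell cycle genes, 0 of 26 held Tspan8 at equal depth (0 to 13.2 by the exact interval) and 11 of the other 70 did (15.7%, 8.11 to 26.4). Without thinning, cells 1, 26 and 54 of those 26 held reads, at 21.3, 4.53 and 11.9 CPM. For title numbers up to 55 alone, which hold 24 of the 26, the counts were 0 of 24 and 3 of 21.

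Of the transcription factors, Bcl11b was close to absent from luminal cells. At equal depth 5 of the 85 basal cells carried a read (5.88%, 1.94 to 13.2), as did 1 of the 41 luminal cells (2.44%, 0.0617 to 12.9) and 4 of the 96 at pregnancy (4.17%, 1.15 to 10.3). Adult basal cells with a read stood at 1.37, 2.64, 30.9, 61.1, 78.8, 151 and 327 CPM, and the luminal cells at 1.36 and 1.56 CPM, 1 read each. Pregnancy cells stood at 119 and 122 CPM in the 2 positive cells of the basal class and between 3.18 and 9.92 CPM in 4 cells of the mixed class, and 40 of the 42 reads had title numbers up to 55. Summed reads were 327 in adult basal and 2 in adult luminal cells, a log2 ratio of 6.83 (4.96 to 9.88). Cell 70 held 65.4% of the adult basal reads, and the ratio was 6.28 without it and the top luminal cell. No cell with Bcl11b carried markers of another type.

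Sox9 was found nearly everywhere. Reads were present in 70 of 85 cells sorted as basal (82.4%, 72.6 to 89.8), 37 of 41 sorted as luminal (90.2%, 76.9 to 97.3) and 90 of 96 from pregnancy (93.8%, 86.9 to 97.7). Levels in cells with a read ran from 5.03 through 405 to 2875 CPM in adult basal, from 10.1 through 541 to 2764 CPM in adult luminal and from 6.11 through 594 to 3739 CPM in pregnancy cells. The ranges overlapped, and the summed levels were 513, 712 and 635 CPM. Within pregnancy Sox9 stood at 935 CPM (915 to 955) for title numbers up to 55 and 451 CPM (440 to 462) above, a wider gap than that between the adult sorts. The log2 ratio of adult basal to luminal cells was -0.47 (-0.50 to -0.44), against a median of -0.34 over all genes tested. Scaled also to gene length, as RPKM, the summed level of Sox9 in adult basal cells (124 RPKM) was within counting error of that of Lgr4 (123), and both were above Lgr5 (34.6) and Tspan8 (30.8). In adult luminal cells the order on the same scale was Sox9 (172), Lgr4 (54.4), Tspan8 (34.5), Aldh1a3 (21.1) and Kit (11.9). In pregnancy it was Sox9 (153), Lgr4 (87.6), Tspan8 (14.9), Procr (10.2), Kit (9.49) and Aldh1a3 (7.85), with Procr and Kit within counting error and 71.7% of the Procr reads in cell 35. This order rests on the pooled cells. After Sox9 and Lgr4 came Procr (26.6), Aldh1a3 (6.15), Kit (5.87) and Tspan8 (4.39) for title numbers up to 55, and Tspan8 (21.4), Kit (11.7) and Aldh1a3 (8.90) above 55, where Procr was at 0.185.

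Aldh1a3 was a luminal-side gene in the adult sorts. No read remained in the 85 basal cells at equal depth, which allows a share of up to 3.53%, while 9 of the 41 luminal cells (22.0%, 10.6 to 37.6) and 9 of the 96 at pregnancy (9.38%, 4.38 to 17.1) were positive. The single adult basal read was in cell 91 (9.27 CPM), whereas the luminal cells with a read ran from 7.61 through 182 to 1401 CPM and the pregnancy cells from 10.9 through 60.1 to 618 CPM. The log2 ratio of summed levels in basal to luminal cells was -11.32 (-16.63 to -8.84), from 1 and 1782 reads. Of the 9 adult luminal cells, 5 carried 3 or more markers of another type, among 6 such cells in that sort, and these held 1189 of the 1782 reads. The share was 4 of 35 (11.4%, 3.20 to 26.7) without them, and the ratio was -9.95. All 3 adult luminal cells with Procr at equal depth also held Aldh1a3.

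Kit was found in luminal and mixed cells. The adult basal sort had 0 positive of 85 (up to 3.53%), the luminal sort 12 of 41 (29.3%, 16.1 to 45.5) and pregnancy 30 of 96 (31.3%, 22.2 to 41.5). Without thinning 3 adult basal cells held 4 reads between them, at 1.30 to 2.53 CPM, and 17 luminal cells ran from 1.64 through 138 to 769 CPM. The 35 pregnancy cells with a read ran from 5.08 through 37.2 to 726 CPM, and the summed level was 30.4 CPM for title numbers up to 55 and 60.7 CPM above. No adult basal cell reached the median of either other group, and the log2 ratio of basal to luminal cells was -9.11 (-10.99 to -7.75). Markers of another type were carried by 7 of the 30 pregnancy cells with Kit and by 17 of the 66 without it, and the share without such cells was 31.9%.

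The lineage of positive cells was read from the percent of 200 basal-list and 191 luminal-list genes detected at equal depth, with the 9 members and the milk genes left out. A cell was basal or luminal where it reached the 10th percentile of adult basal cells (19.9%) or of adult luminal cells (17.3%), mixed where it reached both and unclassed where it reached neither. By this rule 36 pregnancy cells were basal, 31 luminal, 27 mixed and 2 unclassed, and 6 and 2 cells lay within 2 points of the basal and the luminal threshold. Mixed cells held a median of 3998 genes at equal depth, against 3014 in basal and 3055 in luminal cells. Some of them, such as cells 4, 18 and 33, carried markers of another type. The part of genes per cell and of such markers in the mixed class was not tested. The luminal threshold rests on few cells. With thresholds from cells at the minimums of the study (100000 reads and 1500 genes for luminal cells), 55.2% of pregnancy cells were basal, 22.9% luminal and 10.4% mixed, in place of 37.5%, 32.3% and 28.1%. The percentages themselves are therefore given beside the classes.

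Kit marked the luminal side in pregnancy. Of its 30 positive cells, 19 were luminal, 10 mixed and 1 basal. It was detected in 19 of 31 cells of the luminal class (61.3%, 42.2 to 78.2), 10 of 27 of the mixed class (37.0%, 19.4 to 57.6) and 1 of 36 of the basal class (2.78%, 0.0703 to 14.5). The cells with Kit detected a median of 30.9% of the luminal list and 16.5% of the basal list, and those without it 13.1% and 32.0%. The same order of medians held for title numbers up to 55 (luminal list 31.4% against 12.6%) and above 55 (30.4% against 20.4%). Milk genes took a median of 17.8% of reads in pregnancy cells with Kit and 1.27% in those without it. Under the thresholds from the study's minimums, 56.7% of the cells with Kit were luminal and 20.0% basal.

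**Figure D4:**
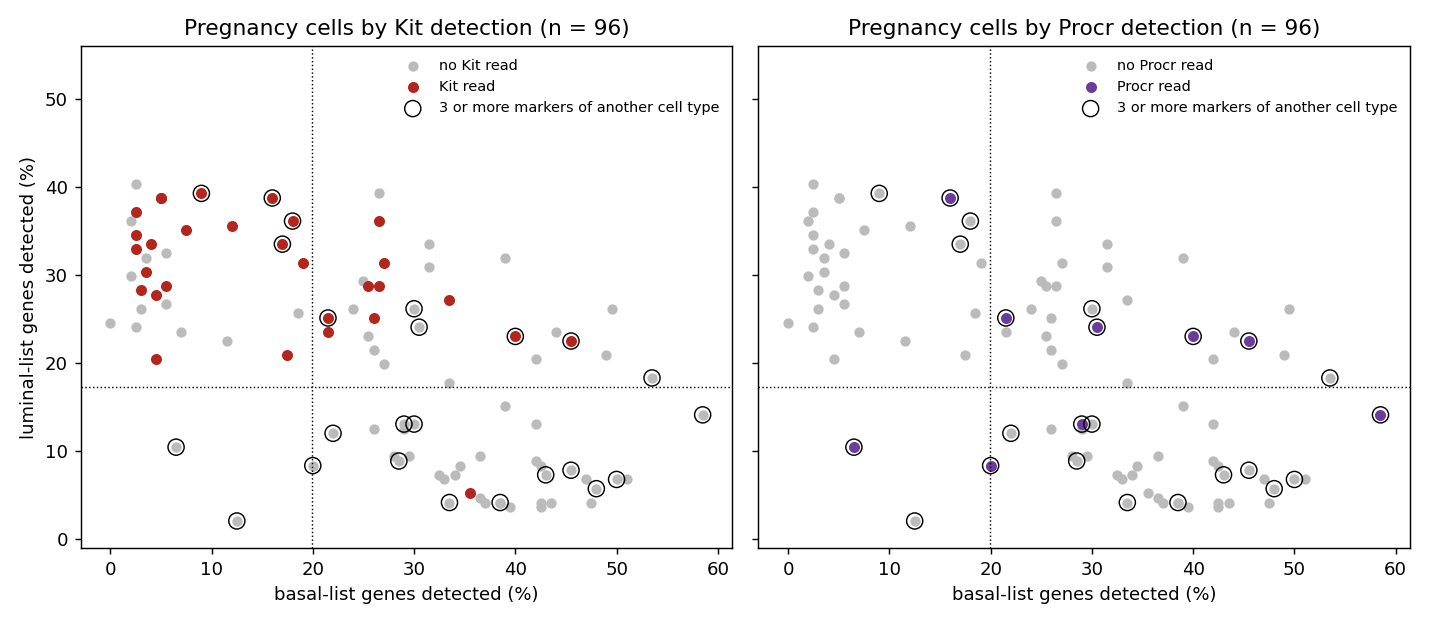
Percent of the basal list (x axis) and of the luminal list (y axis) detected at equal depth in each of the 96 pregnancy cells, with cells holding Kit (left) or Procr (right) coloured, dotted lines at the class thresholds of 19.9% and 17.3%, and rings on cells with 3 or more markers of another cell type. Of the 30 cells with Kit 29 lie above the luminal threshold, and all 9 cells with Procr carry a ring.

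Detection of the other genes followed a lineage less closely in pregnancy or rested on few cells, while levels of some differed between classes. Bcl11b was detected in 2 cells of the basal class, 0 of the luminal class and 2 of the mixed class, with 35, 0 and 7 reads. Tspan8 was detected in 3, 4 and 4 cells of these classes at 9.43, 48.2 and 5.76 CPM, with 53.0% of the luminal-class reads in cell 117. Lgr4 was detected in 36 of 36 cells of the basal class, 26 of 31 of the luminal class and 26 of 27 of the mixed class, and its summed level was 850 CPM, 207 CPM and 455 CPM in these classes. Sox9 was detected in 35, 28 and 26 cells of the same classes at 733, 549 and 684 CPM. The 9 cells with Lgr6 comprised 4 basal, 1 luminal and 4 mixed cells, and the 9 with Aldh1a3 comprised 2 basal, 4 luminal, 2 mixed and 1 unclassed cell. The cells with Aldh1a3 detected a median of 22.5% of the luminal list, close to the 23.0% of the cells without it, but 12.5% of the basal list against 29.0%. The single Lgr5 cell was basal, with 26.0% of the basal list, 12.6% of the luminal list and 19.8% of its reads from milk genes. Procr cells comprised 3 basal, 1 luminal, 4 mixed and 1 unclassed cell. All 9 carried markers of another type, so their class alone does not give their lineage. Cell 55, classed as basal, detected 20.0% of the basal list and no read of Epcam, Krt8 or Krt14. The basal list includes collagen genes, and their part in the class of cells with fibroblast markers was not tested.

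Within the adult luminal sort, 12 luminal progenitor and 12 mature luminal markers (none of them a member) divided the 41 cells into 8 with 6 or more progenitor markers only, 17 with mature markers only, 14 with both and 2 with neither. Kit was detected in 4 of 8 (50.0%, 15.7 to 84.3), 3 of 17 (17.6%, 3.80 to 43.4), 4 of 14 (28.6%, 8.39 to 58.1) and 1 of 2 of these. The cells with Kit held a median of 6.5 progenitor and 6.5 mature markers, and those without it 4 and 9. Tspan8 showed the same order, with medians of 8 and 7.5 markers in its cells and 4 and 9 in the rest. Aldh1a3 did not, since its cells held medians of 4 and 8 against 6 and 8. The intervals of Kit overlapped between these subsets, and 10 and 7 of the cells lay within 1 marker of the progenitor and the mature cut.

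Co-detection was counted for the 36 pairs of the 9 genes. The mean number detected per cell was 2.39 in adult basal (0 to 5), 2.66 in adult luminal (1 to 5) and 2.61 in pregnancy cells (0 to 6). For all 36 pairs in each group, the number of cells that the product of both shares gave lay within the interval of the observed number, which is wide for the sparse genes. That held even for Procr with Aldh1a3 in adult luminal cells, where all 3 cells with Procr held Aldh1a3. The comparison therefore cannot tell independent from associated detection for sparse genes. The largest excess in adult basal cells was Lgr5 with Lgr6, found together in 7 cells against 4.09 from the product. Both genes were found in cells with more genes at equal depth. The median was 2730 genes with Lgr6 and 2048 without it, and 2631 with Lgr5 and 1990 without it. The part of genes per cell in the excess was not tested. In adult luminal cells the largest excess was Aldh1a3 with Kit (5 against 2.63), followed by Procr with Aldh1a3 (3 against 0.659). Cells 11, 27 and 43 of those 5, and all 3 with Procr, carried markers of another type. Without such cells no pair in that sort exceeded its product by more than 1.4 cells. In pregnancy, Lgr4 with Sox9 (85 against 82.5) and Aldh1a3 with Kit (5 against 2.81) led. In adult basal cells 19 of the 36 pairs were never found in 1 cell, in adult luminal cells 16 and in pregnancy 8. These counts include pairs that could not occur. At equal depth no adult basal cell held Aldh1a3 or Kit and no adult luminal cell held Lgr5, so the counts do not compare overlap between groups. Procr and Lgr5 were found together in 1 adult basal cell (95) at equal depth. Without thinning they were together also in cells 23 and 32, with 1 Procr read each and Lgr5 at 272 and 607 CPM.

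**Figure D5:**
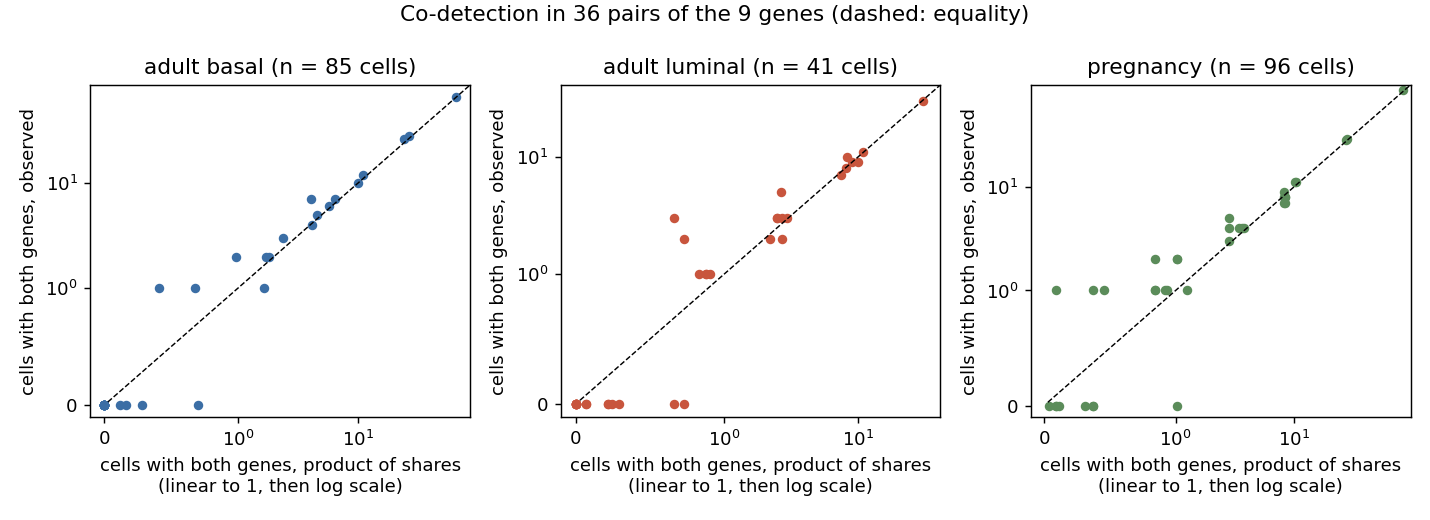
Number of cells with both genes of a pair (y axis) against the number from the product of their shares (x axis), for 36 pairs in each group, with both axes linear to 1 and logarithmic above, and a dashed line of equality. Lgr5 with Lgr6 (7 against 4.09) has the largest excess in adult basal cells and Aldh1a3 with Kit (5 against 2.63) in adult luminal cells. Adult luminal cells 11, 27 and 43 of the latter pair carried markers of another cell type. The part of genes per cell in these excesses was not tested.

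Summed over the adult sorts, 3 of the 9 genes were higher in basal cells by 4-fold or more (Lgr5, Bcl11b and Lgr6) and 2 were lower (Aldh1a3 and Kit), where 13.8% of 15316 genes tested were higher and 21.4% lower. The other 4 lay within 4-fold, Lgr4 at 1.18, Tspan8 at -0.16, Sox9 at -0.47 and Procr at -1.86 (-2.23 to -1.50) on the log2 scale. Without the cells that carried markers of another type, no luminal Procr read was left and its ratio was at least 4.13 in the opposite direction. Without adult basal cell 95 and adult luminal cell 26 it was -2.78, past 4-fold. TMM scaling moved all ratios by 0.30.

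Against adult basal cells, the basal class of pregnancy had lower summed levels of Lgr5 and Tspan8. The log2 ratio was -3.62 (-3.98 to -3.28) for Lgr5 and -2.31 (-2.75 to -1.90) for Tspan8, and 9.60% of all genes tested were lower by 4-fold or more. All 69 Lgr5 reads of that class came from cell 115, and without the top cell of each group the ratio was -7.76 or lower. The 49 Tspan8 reads included 37 from cell 41, which carried fibroblast and immune markers, and the ratio was -5.02 without cells of that kind. Detection of Tspan8 at equal depth did not differ, with 3 of 36 cells of the class (8.33%) and 7 of 85 adult basal cells (8.24%). Its summed level was 9.43 CPM in the class. Adult basal cells stood at 14.3 CPM for title numbers up to 55 and 81.3 CPM above, and cell 88 held 37.7% of their reads. Aldh1a3 (10.07, 7.57 to 15.38), Kit (3.37, 1.29 to 5.64, from 6 and 4 reads) and Procr (2.30, 1.81 to 2.78) were higher by 4-fold or more, as were 18.0% of all genes tested. The Aldh1a3 ratio came from 156 reads against 1, and cell 5, which carried fibroblast markers, held 139 of the 156. Without cells carrying other markers Aldh1a3 was at 7.45 and Procr at -1.51, so that the direction of Procr turned, and with thresholds from the study's minimums Kit was at 8.35. Lgr4 (0.45), Sox9 (0.52), Bcl11b (-0.44) and Lgr6 (-0.98) lay within 4-fold, against a median of 0.11 over all genes tested.

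In the luminal class of pregnancy, 3 genes were lower than in adult luminal cells by 4-fold or more and none was higher, where 22.7% and 8.06% of all genes tested were. These were Procr (-4.31, -6.20 to -2.93), Aldh1a3 (-2.12, -2.38 to -1.88) and Lgr5, with 0 reads against 35. The floor of 3 counts put Lgr5 at least 4.17-fold lower, but its reads came from adult luminal cells 6 (23 reads) and 30 (12 reads) alone. At equal depth it was in 0 of 41 adult luminal cells and 0 of 31 cells of the class, so detection showed no difference. The median of all genes tested was -0.91, and TMM scaling moved every ratio by 0.88, after which Procr alone was called past 4-fold, at -3.43. The Lgr5 value is a bound from the floor of 3 counts, so a drop past 4-fold remained possible for it. Relative to that median, Kit (0.30, 0.17 to 0.43), Lgr6 (0.10), Tspan8 (-0.12), Sox9 (-0.38) and Lgr4 (-0.41) lay higher, and with TMM scaling the last 3 were above 0 (0.76, 0.50 and 0.47). Lgr6 was at -3.48 without the top cell of each group, since cell 26 held 42 of its 43 reads in that class. Bcl11b had 0 and 2 reads and no ratio. Without cells carrying other markers Procr had no read in either group and Aldh1a3 was at -0.63.

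Other genes of the R-spondin and Wnt response were found on both sides. Of 28 listed, 23 had a ratio in adult cells, of which 8 were higher in basal and 4 in luminal cells by 4-fold or more (13.8% and 21.4% of all genes tested), with a median of 0.79 against -0.34 over all genes. Rspo1, an R-spondin ligand, stood at 38.1 CPM in luminal and 0.0559 CPM in basal cells (log2 ratio -9.41, -12.46 to -7.55). Fzd7, a Wnt receptor, stood at 135 CPM in basal and 5.91 CPM in luminal cells (4.51, 4.28 to 4.76), and Fzd3 at 211 and 29.2 CPM (2.85, 2.74 to 2.96). Nkd1, an inhibitor of Wnt signalling, had no luminal read and 17.6 CPM in basal cells. Fzd4, another Wnt receptor, was higher in luminal cells (25.3 against 0.391 CPM), as was Tnfrsf19 (23.7 CPM, no basal read), from 3 and 4 of the 41 luminal cells at equal depth.

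Of 27 other reported stem and progenitor markers, 5 were higher in basal and 12 in luminal cells by 4-fold or more (median -1.92), beside the same 13.8% and 21.4% of all genes. The luminal side was led by Ly6a, also called Sca-1 (881 CPM and 27 of 41 luminal cells, no basal read), Cd55 (175 CPM, no basal read) and Prom1 (54.7 against 0.140 CPM). Id4 (26.8 CPM, no luminal read), Snai2 (97.6 against 0.523 CPM) and Itga2 (12.2 against 0.644 CPM) led the basal side. Id4 and Snai2 were detected in 27 and 30 of the 85 adult basal cells, shares close to that of Lgr5 (29). In the basal class of pregnancy against adult basal cells, 3 of 22 Wnt genes and 10 of 27 other markers were higher (18.0% of all genes tested), and 1 of each list was lower (9.60%). Among the 10 were Cdh5, 1 of the 5 endothelial markers (27 reads against 0), Zeb1 (105 against 1), S100a4 (61 against 6) and Inpp5d (2 reads in each). These genes are also among the 12 higher in adult luminal cells. Counts without cells carrying markers of another type are not given for these lists. In the luminal class 1 of 21 Wnt genes and 3 of 27 other markers were higher (8.06%), and 5 and 6 were lower (22.7%), before the shift of 0.88 with TMM scaling.

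Genes with the most similar pattern over the cells of a group were sought by Spearman's rho of thinned counts, where both genes were found in 25% or more of the cells. The values share the depth and quality of each library and are a description. For Lgr5 in 85 adult basal cells these were Ranbp2 (0.52), Huwe1 (0.44) and Rasa1 (0.43), among 3056 genes. For Kit in 96 pregnancy cells they were Wfdc18, a milk-associated gene of alveolar cells (0.55), Cldn7 (0.54) and Dbi (0.53), among 5081 genes, and in 41 adult luminal cells Khdrbs3 (0.61), Smox (0.60) and Tsc22d3 (0.60). Sox9 was nearest to Tfap2c, a transcription factor of the mammary epithelium, in pregnancy (0.49), to Ptn in adult luminal cells (0.63) and to Chd9 in adult basal cells (0.44). Lgr4 was nearest to Perp (0.62), Lipa (0.54) and Lifr (0.36) in pregnancy, adult luminal and adult basal cells. No gene was among the nearest 3 of the same member in more than 1 group.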

How the data were processed

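Single-cell RNA-seq counts of 278 mouse mammary cells were used, 1 library each. Alignment by the authors used Subread 1.4.6 and mm10, and featureCounts with RefSeq genes gave the deposited values, which are raw counts per Entrez gene with no normalisation. Groups came from the labels.

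Symbols were matched for 25275 of 27179 genes (GRCm38.p6). Removed were 15 mitochondrial genes (9.54% of reads), 120 ribosomal genes (1.60%) and 1904 unnamed ones (1.20%), leaving 25140. Cells with 50000 or more reads were kept (highest 1292391) and thinned once without replacement to that depth. Lineage lists were those of the study, from separate bulk RNA-seq. Shares have Clopper-Pearson intervals, sums Poisson intervals and ratios of sums exact conditional ones, and a sum of 0 was set to a floor of 3 counts over the group. Ratios covered genes at 1 CPM in 3 or more cells. Named genes were the 9 members and, from each of the 2 further lists, the 3 highest and 3 lowest ratios among genes at 10 CPM or more. Alternatives are given in the closing section. TMM factors came from edgeR 4.0.16; all else was done in Python 3.11.15 with SciPy 1.17.1. Ratios and thinning were tested on simulated data. No doublet caller was run, since the authors inspected capture sites by eye. A further table with the same counts was not used. The members and lists were chosen with earlier results of these data known.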

Additional observations from a re-analysis of the deposited data

Results flagged for a closer look

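Reads of the 9 genes also appeared in the 56 cells left out for having under 50000 reads, above the 3 reads that a count of 0 allows. In the 27 adult basal cells left out there were 546 reads of Sox9 (11 cells), 58 of Lgr4 (12 cells) and 19 of Lgr5, all 19 in 1 cell. In the 2 adult luminal cells left out there were 52 reads of Sox9, in 1 cell. In the 27 pregnancy cells left out there were 316 reads of Lgr4, 284 of Sox9, 8 of Aldh1a3 (3 cells), 7 of Kit (5 cells) and 4 of Procr (2 cells). No Kit or Aldh1a3 read was found in the adult basal cells left out.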

How the results depend on the processing

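No paired analysis was possible because each library is 1 cell and its number only names it. Of 273 recomputed shares, mean numbers per cell and counts of genes past 4-fold, 249 stayed within the main interval, the spread over cells or 1.5 times the main count. Of 308 further recomputed values, 161 stayed the same, 144 moved and 3 reversed. The 27 shares all stayed within their intervals as the mean over all possible draws and under the cell minimums of the study. With 5 reads in place of 1, shares dropped out of their intervals in adult basal cells for Lgr6 (4.71%) and Sox9 (68.2%), in adult luminal cells for Lgr4 (61.0%) and Bcl11b (0%), and in pregnancy for Procr (3.13%), Lgr6 (4.17%), Lgr4 (81.3%), Tspan8 (4.17%), Sox9 (85.4%), Aldh1a3 (3.13%) and Kit (10.4%). Lgr6 in pregnancy was at 18.8% without thinning and 17.9% at 100000 reads, and Bcl11b in adult luminal cells at 0% with all genes kept, where the draw differs. For title numbers up to 55 and above 55, Procr was at 17.8% and 1.96% of pregnancy cells, and Lgr5 at 0% up to 55. Chosen after seeing the data, the shares without cells carrying markers of another type put Procr at 0% in adult luminal and in pregnancy cells. The ratio of Procr in the basal class of pregnancy reversed without those cells (-1.51), with class thresholds at the median (-0.70) and with title numbers above 55 (-0.81). The 3 genes called lower in the luminal class of pregnancy became 1 with TMM scaling, with class thresholds at the 5th percentile, with unthinned classes and without cells carrying other markers, and 1 gene was higher with title numbers up to 55. The cause was not tested. Class thresholds from cells at the study's minimums were also chosen after seeing the data. With 85, 41 and 96 cells, a share of 0 allows up to 3.53%, 7.32% and 3.13% in adult basal, adult luminal and pregnancy cells.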
